A study of Mus musculus with 8 samples.

Results

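The transcript levels of *Gadd45a*, *Gadd45b*, *Gadd45g*, *Btg1*, *Btg2*, *Btg3*, *Plk2*, *Plk3*, *Sertad1* and *Sertad2* were compared between sorted cardiac fibroblasts of WT mice and of mice with a deletion of *Lmna*, the gene encoding lamin A/C. These are 10 of the 18957 genes listed in the files. They were chosen by symbol with the genotype differences of the same 8 libraries already known, so the genotype contrast is given for them as a description, and its p-values are values of the fit over all genes and not independent evidence for the choice. There were 4 WT and 4 Pdgfra-Cre:LmnaF/F libraries. The Pdgfra-Cre:LmnaF/F mice carried a *Pdgfra-Cre* BAC transgene and *Lmna* alleles with a floxed exon 2, and the WT littermates had neither. A group with Cre alone was not analysed here. The mice were 3 to 4 weeks old and of a mixed C57BL/6 strain. Their ventricles were dissociated with collagenase, and live cells positive for PDGFRA and negative for blood lineage markers were sorted. The *Pdgfra* promoter is active in mesenchymal cells of several tissues and in the lineage of some cardiac myocytes, so the deletion was not limited to the fibroblasts. The sources used here do not say whether a library came from 1 mouse, and the p-values measure the spread between these libraries.

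The 4 families hold small regulators of growth and of the response to stress. GADD45 proteins bind PCNA and the CDK1-cyclin B kinase and activate MTK1, a kinase upstream of p38 and JNK. BTG proteins restrain proliferation and bring the CCR4-NOT deadenylase to mRNAs, which shortens their poly(A) tails. PLK2 and PLK3 are polo-like kinases that respond to growth factors and stress, whereas PLK1 acts in mitosis, and SERTAD proteins bind CDK4 or the E2F transcription factors with their DP partners. Several of these genes are known targets of p53 or belong to the early response genes, whose transcripts accumulate within a short time of a stimulus, dissociation of a tissue included.

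*Btg2*, *Sertad1* and *Gadd45b* were higher in the Pdgfra-Cre:LmnaF/F fibroblasts than in the WT fibroblasts, by 4.21-fold, 3.46-fold and 3.33-fold. All 10 genes passed the filter on low counts, and these 3 had an adjusted p under 0.05 in the quasi-likelihood test of edgeR over 13036 genes, whereas none of the 10 passed as lower. Of all genes tested, 0.407% passed in either direction (53 genes) and 0.169% passed as higher (22 genes). At an unadjusted p under 0.05, 6 of the 10 genes were higher and none was lower, against 6.24% and 5.65% of all genes tested. In 5 of the 10 every Pdgfra-Cre:LmnaF/F library was above every WT library, which held for 4.06% of all genes tested. DESeq2 called 4 of the 10 genes as higher, *Btg1* being the fourth, and 0.935% of the 14339 genes to which it gave an adjusted p. The median log2 fold change was 0.93 over the 10 genes and 0.02 over all genes tested, and the fold change was positive for 9 of the 10 and for 51.8% of all genes tested. Nothing is read from these counts, since the genes were chosen with this contrast known.

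**Figure D1:**
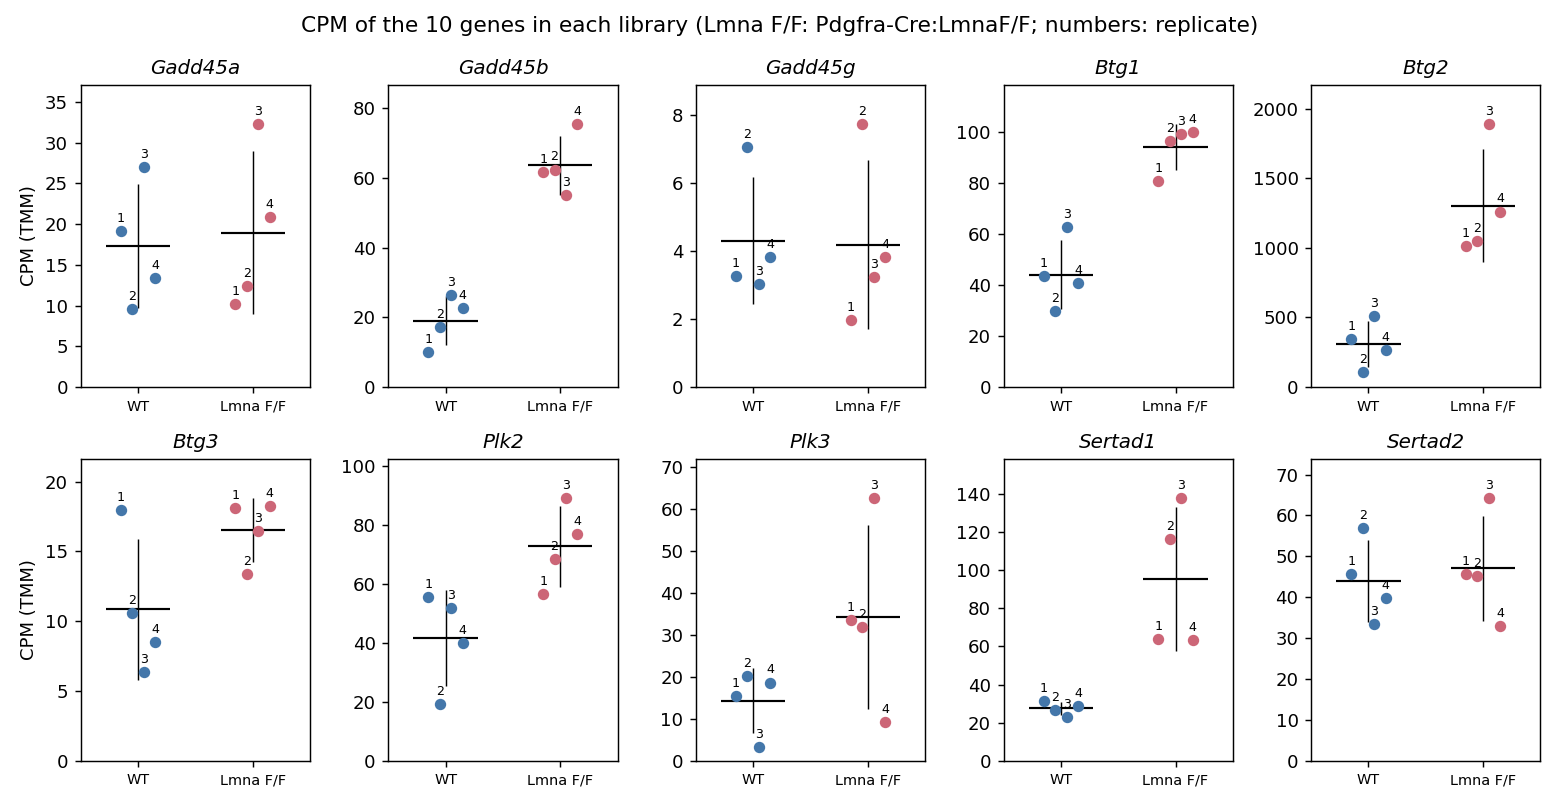
CPM (counts scaled to library size with TMM factors, vertical axes from 0) of each of the 10 genes in the 4 WT libraries (blue) and the 4 Pdgfra-Cre:LmnaF/F libraries (red, labelled Lmna F/F). Numbers are replicates, horizontal lines means and vertical lines 1 SD. The red points lie above all blue points for *Gadd45b*, *Btg1*, *Btg2*, *Plk2* and *Sertad1*, and the groups overlap for the other 5 genes.

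Total counts ranged from 2080555 in WT replicate 2 to 12502949 per library, and *Lmna* was lower in the Pdgfra-Cre:LmnaF/F libraries (111.0 ± 20 CPM, SD, n = 4) than in the WT libraries (365 ± 88.4 CPM, SD, n = 4), at a log2 fold change of -1.72 ± 0.22 (standard error, SE, edgeR adjusted p = 0.00492). All 8 fibroblast markers examined were detected, and their summed level was 41470 to 56570 CPM in the 8 libraries. The summed level of 8 cardiac myocyte markers was 3297 CPM in Pdgfra-Cre:LmnaF/F replicate 4 and 225 to 668 CPM elsewhere, and that of 8 leukocyte markers was 393 CPM in that library and 37.4 to 162 CPM elsewhere. Without that library the count of called genes among the 10 was again 3. Transcripts of 4 Y-linked genes summed to 143 to 273 CPM in WT replicates 1, 2 and 4 and Pdgfra-Cre:LmnaF/F replicate 4, and to at most 1.96 CPM in the other 4 libraries. The labels give no sex, and the genotypes are unevenly spread over the libraries with and without Y-linked transcripts. Differences of mean log2 CPM within these classes are therefore given for each gene, from 3 WT against 1 Pdgfra-Cre:LmnaF/F library with Y-linked transcripts and from 1 WT against 3 Pdgfra-Cre:LmnaF/F libraries without them. With the mean log2 level of the Y-linked genes in each library as a covariate, *Gadd45b*, *Btg2* and *Sertad1* had an edgeR adjusted p under 0.05. In bulk RNA, more expressing cells and more RNA per cell cannot be told apart.

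Among the *Gadd45* genes, *Gadd45b* was higher in the Pdgfra-Cre:LmnaF/F fibroblasts. *Gadd45b* (chr10:80930073-80932204, plus strand, mm10) is the member of the family best known as an early response gene induced by NF-kB, TGF-beta and stress. The 4 WT libraries, in the order of their replicate numbers, held it at 10.2, 17.1, 26.4 and 22.7 CPM, and the 4 Pdgfra-Cre:LmnaF/F libraries at 61.7, 62.5, 55.1 and 75.4 CPM. All values below follow this order. The groups did not overlap, and the lowest Pdgfra-Cre:LmnaF/F library was above the highest WT library. The means were 19.1 ± 7.05 and 63.7 ± 8.49 CPM (SD, n = 4 each), a log2 fold change of 1.74 ± 0.29 (SE, edgeR adjusted p = 0.0239). The call was lost when WT replicate 2, WT replicate 4, Pdgfra-Cre:LmnaF/F replicate 2 or Pdgfra-Cre:LmnaF/F replicate 3 was left out, with log2 fold changes of 1.52 to 1.93 and adjusted p-values of 0.0149 to 0.0701 over the 8 fits that left out 1 library. The log2 difference was 2.24 among the libraries with Y-linked transcripts and 1.17 among those without.

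*Gadd45a* (chr6:67035096-67037457, minus strand), the classic p53 target of the family, did not pass the test. Its level was 9.56 to 27.0 CPM in the WT and 10.2 to 32.2 CPM in the Pdgfra-Cre:LmnaF/F libraries, and the log2 fold change was 0.12 (95% interval -0.81 to 1.05, edgeR adjusted p = 0.954). The exons of *Gadd45a* share 337 bases with E230016M11Rik on the opposite strand, which has no row in the count tables used here. The within-class differences had opposite signs, 0.62 with and -0.74 without Y-linked transcripts. *Gadd45g* (chr13:51846678-51848468, plus strand), known from sex determination and neuronal development, was low in both groups, with 14 to 74 counts per library. Its log2 fold change of -0.02 had a 95% interval of -1.78 to 1.75 (edgeR adjusted p = 0.997), and changes of several fold in either direction lie within that interval. Its within-class differences were -0.21 and 0.26.

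In RPKM, which allows genes to be compared per length, *Gadd45b* made up 32.0% to 56.8% of the summed level of the 3 *Gadd45* genes in the WT libraries and 62.3% to 83.8% in the Pdgfra-Cre:LmnaF/F libraries. The mean share of *Gadd45b* was 46.4% ± 10.4 (SD, n = 4) and 74.1% ± 8.90 (SD, n = 4). *Gadd45a* held a mean share of 38.3% ± 13.5 in the WT and 19.4% ± 9.38 in the Pdgfra-Cre:LmnaF/F libraries, with overlapping ranges. *Gadd45b* held the largest share of the family in 3 of 4 WT libraries, with *Gadd45a* ahead in WT replicate 1, and in all 4 Pdgfra-Cre:LmnaF/F libraries. These shares follow from the same contrast and were not tested.

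**Figure D2:**
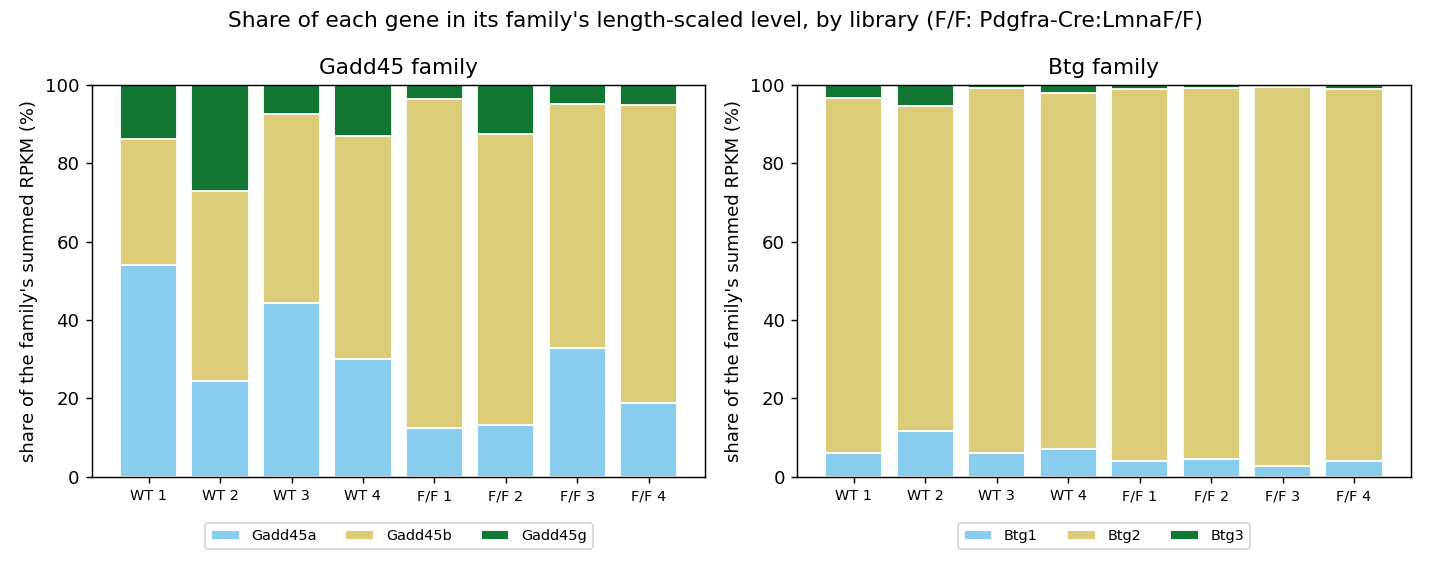
Share of each gene in the summed RPKM of its family (%, vertical axis) in each library, for the *Gadd45* genes (left) and the *Btg* genes (right). *Gadd45b* takes 32.0% to 56.8% of its family in the WT and 62.3% to 83.8% in the Pdgfra-Cre:LmnaF/F libraries (F/F), and *Btg2* takes 82.9% to 93.3% and 94.7% to 96.8%.

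*Btg2* had the largest fold change of the 10 genes and was the most abundant of them per length. *Btg2* (chr1:134075170-134079120, minus strand), also named *Tis21* or *Pc3*, is an antiproliferative early response gene and a p53 target. Its level was 343, 109.7, 511.5 and 268 CPM in the WT and 1011, 1046, 1887 and 1261 CPM in the Pdgfra-Cre:LmnaF/F libraries. WT replicate 2, the library with the fewest counts, was lowest and Pdgfra-Cre:LmnaF/F replicate 3 highest, and the groups did not overlap. The means of 308 ± 167 and 1301 ± 406 CPM (SD, n = 4 each) gave a log2 fold change of 2.08 ± 0.36 (SE, edgeR adjusted p = 0.0315). Without WT replicate 2 the log2 fold change was 1.79 (edgeR adjusted p = 0.0336). The call was lost without WT replicate 1, WT replicate 4, Pdgfra-Cre:LmnaF/F replicate 2 or Pdgfra-Cre:LmnaF/F replicate 3, and the adjusted p-values of the 8 fits ranged from 0.0146 to 0.109. Within the classes with and without Y-linked transcripts the log2 difference was 2.54 and 1.299.

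*Btg1* (chr10:96617006-96622809, plus strand), a regulator of quiescence in lymphocytes and muscle stem cells, was at 43.4, 29.7, 62.5 and 40.7 CPM in the WT and at 80.5, 96.3, 98.9 and 99.7 CPM in the Pdgfra-Cre:LmnaF/F libraries. The groups did not overlap, and the Pdgfra-Cre:LmnaF/F libraries lay close together. The log2 fold change of 1.08 (SE 0.23) did not pass the edgeR test (adjusted p = 0.0709), but passed in 4 of 10 fits with another test, scaling, filter or covariate, among them DESeq2 (adjusted p = 0.00588), and in edgeR without WT replicate 3 (adjusted p = 0.0292). Its within-class differences were 1.41 and 0.55. *Btg3* (chr16:78332637-78377192, minus strand), a p53 target that binds E2F1, was at 6.39 to 17.9 CPM in the WT and at 13.4 to 18.3 CPM in the Pdgfra-Cre:LmnaF/F libraries. WT replicate 1 lay among the Pdgfra-Cre:LmnaF/F libraries, and the log2 fold change was 0.60 (95% interval -0.28 to 1.49, edgeR adjusted p = 0.625), with within-class differences of 0.63 and 1.28. The exons of *Btg3* share 695 bases with *Cxadr* on the opposite strand, and the strand setting of the counting is not given, so reads of these genes may not be separated.

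Among the kinases, *Plk2* was higher in every Pdgfra-Cre:LmnaF/F library than in any WT library but did not pass the test. *Plk2* (chr13:110395046-110400844, plus strand), known as serum-inducible kinase, was at 55.6, 19.1, 51.6 and 40.0 CPM in the WT and at 56.5, 68.4, 89.0 and 76.8 CPM in the Pdgfra-Cre:LmnaF/F libraries. WT replicate 1 and Pdgfra-Cre:LmnaF/F replicate 1 were under 1 CPM apart, and the log2 fold change was 0.79 (95% interval 0.17 to 1.41, edgeR adjusted p = 0.297), or 0.56 without WT replicate 2. The within-class differences were 1.13 and 0.44. *Plk3* (chr4:117128655-117133963, minus strand), a kinase that phosphorylates p53 under stress, was at 15.4, 20.1, 3.20 and 18.6 CPM in the WT and at 33.4, 31.9, 62.5 and 9.25 CPM in the Pdgfra-Cre:LmnaF/F libraries. Pdgfra-Cre:LmnaF/F replicate 4 was below 3 WT libraries, and WT replicate 3 was far below the others. The log2 fold change was 1.27 ± 0.54 (SE, edgeR adjusted p = 0.384) and fell to 0.81 without Pdgfra-Cre:LmnaF/F replicate 3. The direction did not hold within both classes, with log2 differences of -0.94 among the libraries with Y-linked transcripts and 3.57 among those without. *Plk3* shares 84 exon bases with *Tctex1d4* on the opposite strand, which had no count in the WT libraries and at most 91 counts in a Pdgfra-Cre:LmnaF/F library.

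*Sertad1* had the lowest adjusted p of the 10 genes in the reported edgeR fit, while *Btg2* had the lowest with DESeq2 and *Gadd45b* with limma-voom. *Sertad1* (chr7:27486910-27490316, plus strand) encodes a protein that binds CDK4 and E2F-DP complexes and promotes entry into S phase. It was at 31.4, 26.7, 23.2 and 28.6 CPM in the WT libraries and at 63.7, 116, 138 and 63.3 CPM in the Pdgfra-Cre:LmnaF/F libraries. The WT libraries lay close together, and the Pdgfra-Cre:LmnaF/F libraries formed a lower pair, replicates 1 and 4, and a higher pair. From means of 27.5 ± 3.45 and 95.2 ± 37.6 CPM (SD, n = 4 each) the log2 fold change was 1.79 ± 0.27 (SE, edgeR adjusted p = 0.0185). The call was lost without WT replicate 4 or Pdgfra-Cre:LmnaF/F replicate 3 (adjusted p = 0.0522 and 0.0544), and the log2 fold changes of the 8 fits were 1.56 to 1.94. The within-class differences were 1.13 and 2.11. *Sertad2* (chr11:20543253-20653021, plus strand), a coactivator of E2F known from fat storage, was at 33.4 to 56.9 CPM in the WT and at 33 to 64.2 CPM in the Pdgfra-Cre:LmnaF/F libraries. Its log2 fold change was 0.11 (95% interval -0.45 to 0.67, edgeR adjusted p = 0.928), and its within-class differences were -0.50 and 0.61. The share of *Sertad1* in the summed RPKM of both genes was 68.9% to 77.3% in the WT and 86.8% to 92.4% in the Pdgfra-Cre:LmnaF/F libraries.

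**Figure D3:**
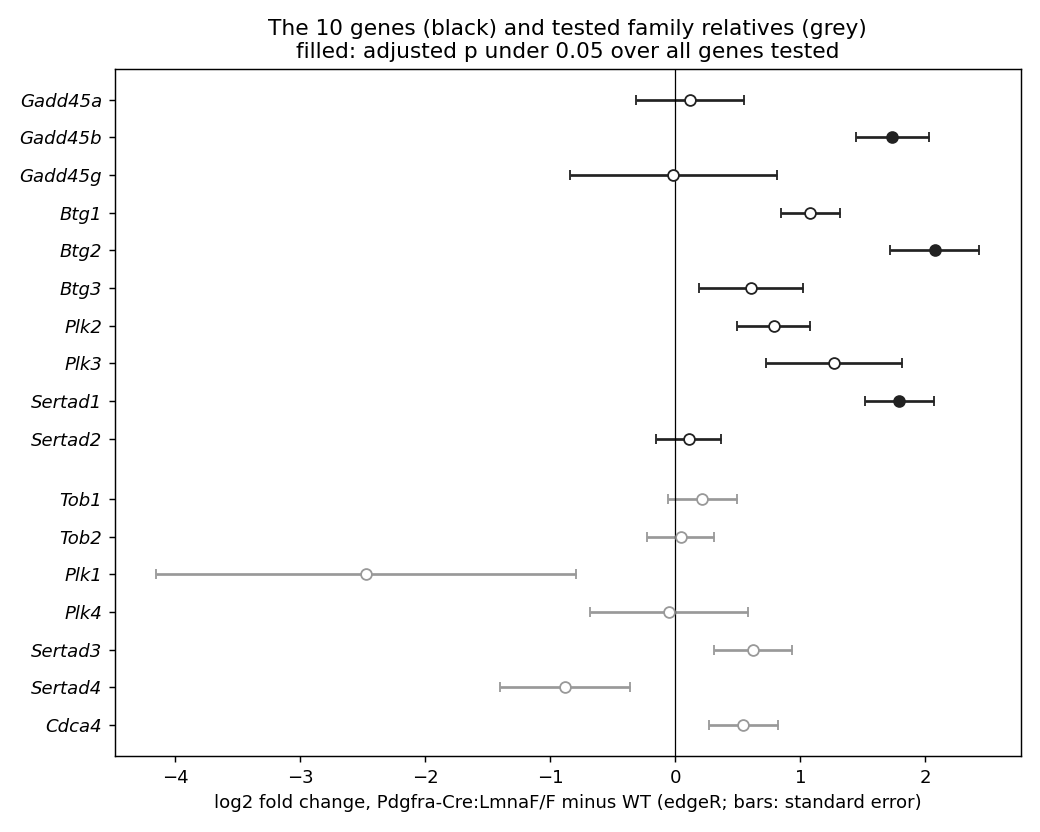
Log2 fold change of Pdgfra-Cre:LmnaF/F against WT (horizontal axis, edgeR, bars 1 standard error) for the 10 genes (black) and 7 tested relatives of their families (grey), with filled points for an adjusted p under 0.05. *Gadd45b* (1.74), *Btg2* (2.08) and *Sertad1* (1.79) are filled, and no relative is.

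Of 9 relatives outside the 10 genes, 7 were tested and none passed (4 positive, 3 negative, median log2 fold change 0.04). At an unadjusted p under 0.05 the edgeR test gave 0 of them, against 6.24% of all genes tested that were higher and 5.65% that were lower, and DESeq2 and limma-voom called 0. With edgeR 0.407% of all genes tested passed, so nothing is read from a count of 0 among 7. *Tob1* and *Tob2*, antiproliferative relatives of the BTG proteins, had log2 fold changes of 0.22 and 0.04. *Sertad3* and *Cdca4* had 0.62 (SE 0.31) and 0.54 (SE 0.28), and *Sertad4* had -0.88 (SE 0.52). *Plk4*, a kinase of centriole duplication, had -0.05, and *Plk1*, with at most 40 counts per library and 0 in 3 of them, had -2.47 with an SE of 1.68, or -0.51 without WT replicate 2 and -5.44 without Pdgfra-Cre:LmnaF/F replicate 4. *Btg4* and *Plk5* did not pass the filter on low counts, with at most 36 and 11 counts in a library. Differences between the 10 genes and their relatives were not tested.

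**Figure D4:**
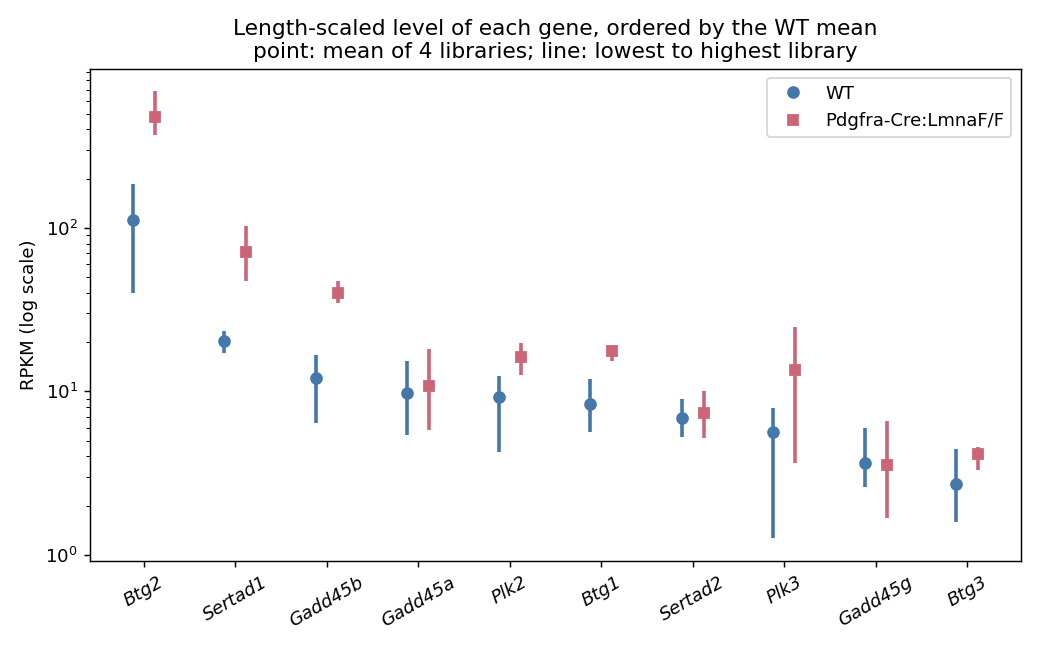
RPKM (vertical axis, log scale) of the 10 genes, ordered by the WT mean, with the mean of 4 libraries as a point and the range from the lowest to the highest library as a line. *Btg2* is highest in both genotypes, with means of 112 (WT, blue) and 474 (Pdgfra-Cre:LmnaF/F, red).

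In WT fibroblasts *Btg2* was at 112 RPKM (range 40.0 to 187), above 97.7% of the 13006 tested genes with a length. *Sertad1* followed at 20.4 RPKM, then *Gadd45b* at 12.01, *Gadd45a* at 9.79, *Plk2* at 9.26, *Btg1* at 8.35, *Sertad2* at 6.92, *Plk3* at 5.67, *Gadd45g* at 3.66 and *Btg3* at 2.70 RPKM. In this order the ranges of neighbours did not overlap between *Btg2* and *Sertad1* and between *Sertad1* and *Gadd45b*, and overlapped for every other pair of neighbours. In the Pdgfra-Cre:LmnaF/F fibroblasts *Btg2* (474 RPKM), *Sertad1* (70.8) and *Gadd45b* (40.1) again came first, with *Btg1* (17.8) and *Plk2* (16.2) next. There the neighbours whose ranges did not overlap were *Btg2* and *Sertad1*, *Gadd45b* and *Btg1*, and *Sertad2* (7.40) and *Btg3* (4.12).

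The spread within a genotype differed among the 10 genes. In the WT libraries the SD of log2 CPM of *Plk3* was higher than that of 98.1% of genes of like level, that of *Btg2* higher than 97.5% and that of *Plk2* higher than 94.9%, whereas for *Sertad1* the figure was 20.6%. In the Pdgfra-Cre:LmnaF/F libraries *Plk3* was again among the most variable (96.2%), and *Gadd45b*, *Btg1* and *Btg3* were among the least (10.1%, 7.73% and 4.91%). After the mean of each genotype was taken off, *Btg2* varied together with *Plk2* (Pearson r = 0.94 over 8 libraries), *Btg1* (0.91) and *Gadd45a* (0.87), and *Plk3* with *Sertad2* (0.88). *Gadd45b* and *Btg3* varied in opposite directions (-0.87). These libraries share their depth and cell makeup across genes, and the correlations are descriptions without a test. Over all tested genes, the pattern most like that of each gene by the same measure was that of *Pcsk5* for *Gadd45b* (0.99), *Pygo1* for *Btg2* (0.97), *Erich1* for *Sertad1* (0.97), *Irak1bp1* for *Btg1* (0.98) and *Klf6* for *Plk2* (0.98). For the others it was that of *Dgkh* for *Gadd45a* (0.98), *Trim29* for *Gadd45g* (0.98), *Nudt7* for *Btg3* (0.96), *Mest* for *Plk3* (0.99) and *Sec16a* for *Sertad2* (0.99). Each of these is the highest r out of all tested genes over only 8 libraries. A high value was therefore likely for any gene, and nothing is read from these pairs.

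The 10 genes are short. Their median span is 4630 bases, against 25530 bases for all genes tested, and 8 of the 10 span under 6000 bases, as do 12.9% of 12995 tested genes. *Btg3* and *Sertad2* are the exceptions. The median number of exons is 4, against 9. The letters ATTTA, the core of the AU-rich elements of unstable mRNAs, occur in the 3′ UTR of 7 of the 10 (70.0%) and of 66.9% of all genes tested, with a median of 2.84 and 1.26 per 1000 bases. Of the called genes, *Btg2* holds them 5 times, and *Gadd45b* and *Sertad1* hold them 0 times.

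Promoter sequence shows what stands before the start of the called genes and of *Plk2*. RefSeq windows on GRCm38.p6, from 250 bases before to 50 bases after the start, matched all 10 genes (12 windows). Searched on both strands, the cAMP response element TGACGTCA, the palindrome bound by CREB and ATF factors, occurred in 2 of the 12 windows, those of *Btg2* and *Plk2*, and in 1.79% of 32851 windows of all genes. Its core TGACG, which the full element contains, occurred in 6 of the 12 and in 20.8% of all windows. In the sequences below, 5′ to 3′ on the strand of the gene, capitals mark TGACGTCA and TGACG or its complement CGTCA. *Gadd45b* and *Sertad1*, shown as the other called genes, hold neither in this window.
Btg2, chr1:134079106-134079405, minus strand: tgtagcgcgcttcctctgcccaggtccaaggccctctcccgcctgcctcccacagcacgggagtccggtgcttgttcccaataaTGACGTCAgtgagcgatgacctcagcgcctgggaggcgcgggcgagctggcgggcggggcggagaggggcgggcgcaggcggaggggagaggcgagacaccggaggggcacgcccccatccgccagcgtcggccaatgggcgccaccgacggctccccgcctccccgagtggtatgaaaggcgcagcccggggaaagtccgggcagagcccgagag
Plk2, chr13:110394794-110395093, plus strand: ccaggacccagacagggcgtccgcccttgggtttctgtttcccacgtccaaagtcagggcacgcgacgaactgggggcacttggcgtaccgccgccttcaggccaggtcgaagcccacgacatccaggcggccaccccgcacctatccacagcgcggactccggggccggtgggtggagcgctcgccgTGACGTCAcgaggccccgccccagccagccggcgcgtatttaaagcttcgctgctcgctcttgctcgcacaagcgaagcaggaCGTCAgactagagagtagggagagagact
Gadd45b, chr10:80929841-80930140, plus strand: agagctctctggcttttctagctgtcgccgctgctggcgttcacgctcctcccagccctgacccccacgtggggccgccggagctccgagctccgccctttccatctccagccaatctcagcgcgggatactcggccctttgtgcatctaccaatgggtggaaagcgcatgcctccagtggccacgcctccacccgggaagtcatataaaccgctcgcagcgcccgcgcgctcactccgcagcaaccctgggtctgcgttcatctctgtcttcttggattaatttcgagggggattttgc
Sertad1, chr7:27486703-27487002, plus strand: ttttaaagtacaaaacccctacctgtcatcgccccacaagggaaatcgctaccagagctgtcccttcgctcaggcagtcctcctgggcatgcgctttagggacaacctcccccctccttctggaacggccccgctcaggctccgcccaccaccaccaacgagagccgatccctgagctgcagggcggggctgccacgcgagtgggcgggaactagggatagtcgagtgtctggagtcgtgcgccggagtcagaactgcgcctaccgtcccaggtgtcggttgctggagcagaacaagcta

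The full element begins 166 bases before the RefSeq start in *Btg2* and 62 bases before it in *Plk2*. TATAAA was found in *Gadd45b*, *Btg1* and *Gadd45g* (3 of 12 windows, 13.6% of all), and a p53 half-site in *Gadd45a* alone (1 of 12, 8.36% of all). The AP-1 letters TGACTCA or TGAGTCA and the CArG box of serum response factor were in none of the 12 windows and in 5.2% and 1.63% of all. A match is no evidence of binding, and no match says only that the letters are not in this window.

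Partners and pathway genes of the 4 families were read from lists that do not contain the 10 genes. No gene among 16 partners of the GADD45 proteins, 15 subunits of the CCR4-NOT complex and its associates, 17 tested of 19 genes around CDK4 and E2F, or 29 tested of 30 p53 targets passed the edgeR test. With edgeR 0.407% of all genes tested passed, so nothing is read from these counts of 0. At an unadjusted p under 0.05, 2 partners were higher and 1 was lower, as were 2 and 1 of the CCR4-NOT genes, 1 and 2 of the CDK4-E2F genes and 4 and 1 of the p53 targets, where 6.24% of all genes tested were higher and 5.65% lower. The median log2 fold changes were -0.15, 0.13, -0.08 and 0.12, beside 0.02 for all genes tested. Of these 4 lists DESeq2 called *Cdk1* as lower (adjusted p = 0.0434) and *Tfdp2* as higher (adjusted p = 0.0414), and limma-voom called 0 genes. Over all genes DESeq2 called 309 of the 14339 with an adjusted p and limma-voom 126 of 13036, so nothing is read from these counts. Among the partners, *Mapk8*, which encodes JNK1, had a log2 fold change of 0.69 ± 0.25 (SE, edgeR adjusted p = 0.279), *Pcna* 0.66 and *Cdk1*, with 0 to 102 counts per library, -3.88 (SE 1.305), or -5.04 without Pdgfra-Cre:LmnaF/F replicate 4. In the WT libraries *Cdk1* was at 0.747, 16.1, 16.3 and 1.55 CPM, so WT replicates 2 and 3 were high and the others within the range of the Pdgfra-Cre:LmnaF/F libraries or just above it, 0 to 1.5 CPM. Of the deadenylase genes, *Cnot6l* had 0.59, *Cnot7* 0.73 and *Cnot9* -0.66.

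For the CDK4 and E2F genes, *Tfdp2*, a DP partner of E2F, had a log2 fold change of 0.92 ± 0.24 (SE, edgeR adjusted p = 0.134), *E2f4*, a repressive E2F, had -0.88 (SE 0.31, edgeR adjusted p = 0.264), and *Ccnd1*, cyclin D1, had -1.88, or 0.06 without WT replicate 2. *Tfdp2* passed in 3 of 10 fits with another test, filter or covariate (DESeq2, no filter and the Y-linked covariate) and *Ccnd1* in 1, without a filter (adjusted p = 0.027). Of the p53 targets, *Steap3* had -0.76, *Xpc* 0.75 and *Sesn1* 1.12, or 0.05 without Pdgfra-Cre:LmnaF/F replicate 4. The summed level of the p53 targets was 1615 to 1838 CPM in the WT and 1484 to 1959 CPM in the Pdgfra-Cre:LmnaF/F libraries, so the groups overlapped. Abundant genes weigh most in this sum. *Steap3* alone was at 314 to 676 CPM in the WT and at 174 to 433 CPM in the Pdgfra-Cre:LmnaF/F libraries. Of the 29 tested targets, 18 had a positive and 11 a negative fold change, beside 51.8% positive among all genes tested.

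Among 33 other early response genes, those known to be induced by tissue dissociation included, 4 passed as higher (*Egr2*, *Ier3*, *Nr4a1* and *Nr4a2*) and none as lower, against 0.169% of all genes tested that passed as higher. At an unadjusted p under 0.05, 20 of the 33 were higher and 0 lower, against 6.24% and 5.65%. The fold change was positive for 29 of the 33 and for 51.8% of all genes tested, with medians of 0.95 and 0.02 on the log2 scale. Their summed level was 7048, 5970, 8893 and 6273 CPM in the WT libraries and 10740, 12530, 16050 and 11900 CPM in the Pdgfra-Cre:LmnaF/F libraries. The groups did not overlap, and replicate 3 was highest within each genotype, as it was for *Btg2*. The other called genes did not share this order. For *Gadd45b*, replicate 3 was highest in the WT (26.4 CPM) but lowest in the Pdgfra-Cre:LmnaF/F libraries (55.1 CPM). For *Sertad1* it was lowest in the WT (23.2 CPM) and highest in the Pdgfra-Cre:LmnaF/F libraries (138 CPM). *Egr2*, a zinc finger transcription factor, had a log2 fold change of 2.65 ± 0.41 (SE, edgeR adjusted p = 0.0202). *Ier3*, an early response gene that modulates survival, was at 16.3 ± 5.58 and 58.8 ± 18.4 CPM (SD, n = 4 each), with a log2 fold change of 1.88 ± 0.30 (SE, edgeR adjusted p = 0.0221). The orphan nuclear receptors *Nr4a2* and *Nr4a1* had 2.78 (SE 0.53, edgeR adjusted p = 0.0427) and 1.92 (SE 0.38, edgeR adjusted p = 0.0471). When 1 library was left out, the *Nr4a1* call held only without Pdgfra-Cre:LmnaF/F replicate 4 and the *Nr4a2* call only without WT replicate 1 or Pdgfra-Cre:LmnaF/F replicate 4, with adjusted p-values of up to 0.166 and 0.161. The log2 fold change of *Nr4a2* was 3.47 without WT replicate 1. The *Ier3* call was lost without WT replicate 1, WT replicate 4 or Pdgfra-Cre:LmnaF/F replicate 3, and the *Egr2* call without WT replicate 4 (adjusted p = 0.0523). Under other tests, scalings, filters or covariates *Egr2* and *Ier3* passed in 10 of 10 fits, *Nr4a1* in 7 of 10 and *Nr4a2* in 7 of 9, and the count of the 33 genes that passed as higher ranged from 3 to 15, with 0 lower. The 15 came from DESeq2, with 134 of 14339 genes called as higher, and from edgeR without a filter, with 126 of 18957. The 3 came from upper-quartile factors and the Y-linked covariate, with 21 and 59 of 13036 genes called as higher. The part of the dissociation and sorting of the cells in the levels of *Btg2*, *Gadd45b*, *Sertad1* and these genes was not tested.

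**Figure D5:**
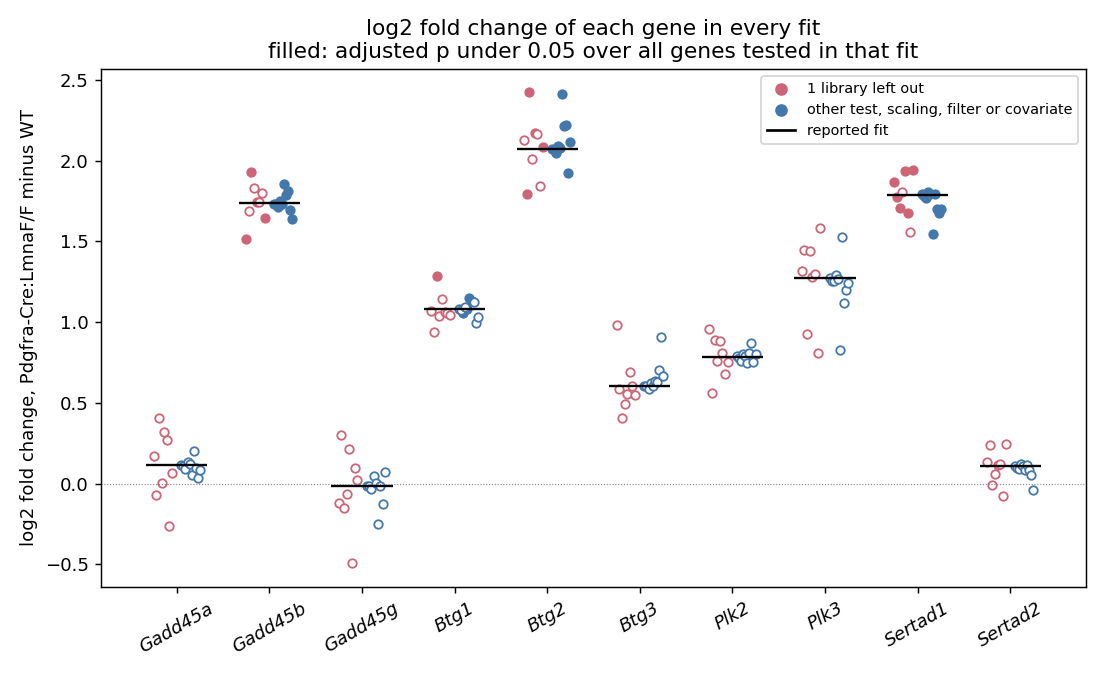
Log2 fold change of Pdgfra-Cre:LmnaF/F against WT (vertical axis) of each of the 10 genes in 8 fits that left out 1 library (red) and in the fits with another test, scaling, filter or covariate (blue), with the reported value as a black line and filled points for an adjusted p under 0.05. *Gadd45b*, *Btg2* and *Sertad1* are filled in all 10 blue fits and in 4, 4 and 6 of the red fits.

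Over these fits *Gadd45b*, *Btg2*, *Sertad1*, *Btg1*, *Plk2*, *Plk3* and *Btg3* stayed above 0, and *Gadd45a*, *Gadd45g* and *Sertad2* lay on both sides of it. The 10 fits with another test, scaling, filter or covariate gave *Gadd45b* a log2 fold change of 1.64 to 1.85, *Btg2* one of 1.93 to 2.41 and *Sertad1* one of 1.55 to 1.81, each with an adjusted p under 0.05.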

How the data were processed

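RNA-seq counts of 8 libraries, 4 per genotype, were used, with genotype and replicate number taken from the sample titles. Per the labels, libraries were strand-specific and depleted of rRNA, the RIN of the input exceeded 8, and 150 bp paired-end reads were sequenced. The authors aligned them to mm10 with HISAT2 and counted them per gene with featureCounts on GENCODE, and they deposited raw counts; the strand setting and the release are not given in the sources used here. The RUV step named in the methods is not part of the deposited counts. Listed genes have at least 4 counts in total, and total counts per library ranged from 2080555 to 12502949, which sets counting error only.

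The 10 genes and all lists were chosen with earlier results of these data known. Counts were analysed with edgeR 4.0.16 in R 4.3.3 (TMM factors, filterByExpr, quasi-likelihood test with genotype as the only term, Benjamini-Hochberg adjustment over 13036 genes, threshold 0.05), after tests on simulated data. DESeq2 1.42.0, limma 3.58.1 (voom with quality weights), other scalings and filters, 1 RUVr factor, a replicate block, a Y-linked covariate, thinned counts and leaving out each library were alternatives. CPM are TMM-scaled, log2 CPM use a prior count of 2, and RPKM use exon lengths of GENCODE M21, to which 18918 of 18957 symbols matched. Chi-square values per degree of freedom of replicate pairs were 15.7 to 95.9, so replicates differed by more than sampling noise. The genes named are the 10, *Lmna*, their relatives, the 3 genes of lowest p in each other list, and the most alike gene of each of the 10. *Nr4a1*, one of 4 called early response genes, falls outside this rule and was named after its values were seen, and *Cxadr*, *Tctex1d4* and E230016M11Rik were named for their overlap with the 10 genes.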

Additional observations from a re-analysis of the deposited data

Results flagged for a closer look

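Of 42 sets of 4 libraries that were examined for a library far from the others by Dixon's ratio, 5 were picked out, all of them sums of marker genes and none of them one of the 10 genes. Chance picks out about 1 in 20 such sets. The cardiac myocyte markers summed to 3297 CPM in Pdgfra-Cre:LmnaF/F replicate 4, with the next library of that genotype at 418 CPM, and the leukocyte markers to 393 CPM in the same library, with the next of that genotype at 91.8 CPM. The erythroid markers summed to 666 CPM in Pdgfra-Cre:LmnaF/F replicate 1, with the next of that genotype at 45.0 CPM, while WT replicates 1, 2 and 4 were at 213, 358 and 365 CPM. In the WT libraries the endothelial markers summed to 431 CPM in replicate 1 (next WT library 287 CPM) and the Schwann cell markers to 54.5 CPM in replicate 3 (next WT library 31.7 CPM), and the highest Pdgfra-Cre:LmnaF/F libraries were above these, at 461 and 57.4 CPM. The endothelial markers did not move together. *Cdh5* was at 40.8 to 62.8 CPM in the WT and at 8.13 to 38.3 CPM in the Pdgfra-Cre:LmnaF/F libraries, without overlap. The ranges of the other endothelial markers overlapped between the genotypes, with *Fabp4* at 60.5 to 136 CPM and 47.7 to 210 CPM. *Gadd45b*, *Btg2* and *Sertad1* had an edgeR adjusted p under 0.05 without Pdgfra-Cre:LmnaF/F replicate 4 (0.0312, 0.0211 and 0.00456), without Pdgfra-Cre:LmnaF/F replicate 1 (0.0399, 0.0348 and 0.0178) and without WT replicate 3 (0.0149, 0.0146 and 0.0324). Without WT replicate 1 the *Btg2* call was lost (0.0493, 0.0786 and 0.0422).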

How the results depend on the processing

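Over all genes, the count past the threshold was 53 with edgeR, 274 with edgeR without a filter on low counts, 309 with DESeq2, whose own filter left 14339 of 18957 genes with an adjusted p, 126 with limma-voom and quality weights and 114 with the Y-linked covariate, and 13 to 76 when 1 library was left out. Of these, 22 of 53, 126 of 274, 134 of 309, 63 of 126 and 59 of 114 were higher, and with 1 RUVr factor 43 of 79 were. Of the 10 genes, 3 passed, 3 or 4 passed under the 10 alternatives that kept all libraries, and 0 to 4 when 1 library was left out. The count was 0 without WT replicate 4 and without Pdgfra-Cre:LmnaF/F replicate 3, and 1 (*Sertad1*) without Pdgfra-Cre:LmnaF/F replicate 2. Among the 10 genes, signs turned for *Gadd45a*, *Gadd45g* and *Sertad2*, whose values were near 0. *Gadd45a* ranged from -0.26 to 0.40 when 1 library was left out. *Gadd45g* was at 0.049 with at least 10 counts in every library, 0.0012 with DESeq2 and 0.069 with the Y-linked covariate, and ranged from -0.49 to 0.30 when 1 library was left out. After thinning *Gadd45g* did not pass the filter on low counts and was not tested. *Sertad2* was at -0.042 after thinning and ranged from -0.079 to 0.24 when 1 library was left out. The cause was not tested.

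The replicate numbers occur in both genotypes, but same-numbered libraries did not deviate together over all genes (r of -0.03 to 0.04, and -0.03 to 0.04 for other pairs). This r cannot show whether they shared a litter or a preparation, which the labels do not give. With the replicate block 36 genes passed, 3 of the 10 genes among them.

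*Gadd45g* had 14 to 74 counts per library and a biological coefficient of variation of 72.8%, and *Plk1* had 0 to 40 counts, with 0 in WT replicate 1 and 35 in WT replicate 2, the library with the lowest total.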
